A study of Mus musculus with 39 samples.

Results

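Levels of 6 genes that are studied as regulators of early cell bias in the mouse embryo, Sox21, Sox2, Pou5f1, Nanog, Carm1 and Prdm14, were followed in RNA sequencing libraries of 2-cell and 4-cell embryos. The genes were chosen by name, and their rows were read in all 39 libraries of a table of 55487 genes. All 6 symbols were found, and 4 of them (Sox21, Pou5f1, Nanog and Prdm14) had enough counts to enter the fit across genes. The others, Sox2 and Carm1, were left out of that fit by its filter on low counts and are given by their counts and an exact permutation test.

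All embryos were wild-type, the only genotype in the labels, and neither strain nor age beyond the stage is given in the sources used here. Of 19 embryos, 5 were sequenced whole at the 2-cell stage and 4 whole at the 4-cell stage, each as 1 library. Another 5 2-cell embryos were taken apart into 10 blastomeres, and 5 4-cell embryos into 20 blastomeres, each blastomere being 1 library. Separated 4-cell embryos 2, 3 and 4 belong to the labelled batch 1, as do all other groups, whereas separated 4-cell embryos 6 and 7 make up batch 2. The labels do not say whether embryos came from separate litters, or whether blastomeres were kept in culture after separation, so a p-value here reflects how these particular embryos vary, part of which may be technical. Values are counts per 1000000 (CPM) of the library total. For a separated embryo they are per summed total of the sisters, in which a deeper sister weighs more. Fewer cells of a kind and less RNA per cell cannot be told apart in such values.

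Batch 2 stood apart from the other libraries before any of the 6 genes was considered. Its 8 libraries had a median total of 26.1 M counts (M, 1000000), against 3.55 M in the 12 separated 4-cell libraries of batch 1, and totals over all libraries ran from 2.02 to 44.05 M. Mitochondrial genes took 4.21 to 7.99% of counts in batch 2 and 15.2 to 33.5% in the separated 2-cell libraries, with the other batch 1 groups between 15.7 and 33.1%. Markers followed the stage labels: 10 oocyte transcripts summed to 11270 to 27650 CPM at the 2-cell stage and to 159.7 to 1579 CPM at the 4-cell stage, and 10 genes of the 2-cell stage summed to 463.5 to 1920 CPM and to 3.12 to 245.2 CPM. Markers of cumulus and granulosa cells summed to at most 47.6 CPM in any library, those of sperm to at most 29.9 CPM, those of blood to at most 86.8 CPM and those of oviduct epithelium to at most 133.4 CPM. A library of the lowest total would have to hold 1.49 CPM of a gene to give 3 counts, and in the deepest library 0.0681 CPM would do so.

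The 6 genes belong to a circuit that has been linked to the first lineage choice of the mouse embryo, between inner cell mass and trophectoderm. Pou5f1 (which encodes OCT4) and Sox2 encode transcription factors that bind DNA side by side at an octamer and a SOX site, and Nanog and Sox21 are among their known targets. Carm1 encodes an arginine methyltransferase of histone tails, Prdm14 encodes a zinc finger protein that works with the corepressor CBFA2T2, and Sox21 encodes a SOX factor that has been described as a repressor of the trophectoderm gene Cdx2. In that account, sister blastomeres of the 4-cell embryo carry unequal amounts or activities of these factors.

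The windows upstream of Sox21 and Nanog are shown because these were the members whose transcripts rose between the stages. Each is the 250 bases before the RefSeq start on GRCm38.p6, and both starts coincide with the first base of the gene in GENCODE M21. The search was for the octamer core ATGCAAA and the SOX cores ACAATG and ACAAAG on both strands, and matches are in capitals. Over 32851 RefSeq promoters, windows of this length held the octamer core in 4.125%, ACAATG in 10.7% and ACAAAG in 16.5%.
Sox21 (chr14:118237031-118237280, minus strand): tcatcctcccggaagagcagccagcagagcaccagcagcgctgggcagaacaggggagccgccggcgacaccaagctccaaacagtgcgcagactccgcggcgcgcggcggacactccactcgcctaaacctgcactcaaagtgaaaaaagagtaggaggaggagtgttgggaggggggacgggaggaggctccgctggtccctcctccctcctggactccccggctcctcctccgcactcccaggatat
Nanog (chr6:122707239-122707488, plus strand): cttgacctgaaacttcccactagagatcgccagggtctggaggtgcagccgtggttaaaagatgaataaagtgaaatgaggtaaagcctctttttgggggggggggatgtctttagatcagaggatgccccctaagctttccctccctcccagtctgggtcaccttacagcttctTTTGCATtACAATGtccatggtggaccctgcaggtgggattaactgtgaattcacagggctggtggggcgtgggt
The Nanog window held an octamer core on the other strand, TTTGCAT, from 75 to 69 bases before the start, and ACAATG from 67 to 62 bases before it, with a single base between them. No match was found in the Sox21 window, which was richer in G and C (65.2% against 52.0%) and held 17 CpG pairs against 3. The Sox2 window held ACAAAG and ATGCAAA. Of the windows of Pou5f1, the upstream one held no match and the downstream one held ACAATG. These matches are a description of letters in the windows.

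Sox21, on chromosome 14 (GRCm38 118233232 to 118237030, minus strand, 3799 exonic bases), had no count in any of the 15 libraries of 2-cell embryos. A total of 3 counts over each 2-cell group would have been 0.0745 CPM in the intact and 0.0161 CPM in the separated embryos. In the 4 intact 4-cell embryos it stood at 64.7, 12.8, 21.5 and 37.5 CPM (34.1 ± 22.8, mean ± SD), and in the separated embryos at 19.3, 38.8 and 10.9 CPM in batch 1 (23.0 ± 14.3, n = 3) and 35.1 and 10.1 CPM in batch 2. Every 4-cell embryo was thus above every 2-cell embryo. The share of all genes for which this holds is not given here. The rise was at least 458-fold in intact embryos (edgeR quasi-likelihood test, adjusted p = 0.00104) and at least 1426-fold in separated embryos of batch 1 (adjusted p = 0.000856). Of all 14119 genes tested, 10.4% changed between the stages in intact embryos and 11.1% in separated embryos. Both rises were called under all 28 other settings tried for each comparison, 19 of which left out 1 embryo, with an adjusted p of up to 0.00527 in those 19 in intact and 0.00352 in separated embryos. The lincRNA Gm4675 overlaps Sox21 on the other strand, and strand is not marked by this protocol, so reads of the overlap cannot be told apart. Gm4675 had counts in 3 of 5 intact and 3 of 10 separated 2-cell libraries, and stood at 27.6 ± 22.0 CPM in intact 4-cell embryos, 30.9 ± 15.3 CPM in batch 1 and 9.61 ± 3.43 CPM in batch 2.

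Nanog, a homeodomain factor of the later epiblast (chromosome 6, 122707489 to 122714633, plus strand), was already present at a low level at the 2-cell stage. It had a count in all 39 libraries. The values of intact 2-cell embryos 1 to 5 rested on 2, 5, 5, 9 and 7 counts. That of embryo 1 was under its limit of 3 counts, 0.398 CPM. With every library thinned to a common depth, 3 of these 5 libraries kept a count. Intact 2-cell embryos held 0.265, 0.694, 0.506, 1.06 and 0.978 CPM (0.701 ± 0.329, n = 5), and intact 4-cell embryos 22.4, 32.1, 11.7 and 24.0 CPM (22.5 ± 8.41, n = 4). The groups did not overlap, and the ratio of their means was 32.2 (log2 fold change 4.96 ± 1.03 SE, edgeR adjusted p = 0.00459). Separated 2-cell embryos held 0.662 to 2.47 CPM (median 0.907, n = 5), and separated 4-cell embryos 7.65, 8.56 and 12.4 CPM in batch 1 and 8.85 and 33.8 CPM in batch 2. These groups did not overlap either, and the log2 fold change of 2.80 ± 0.98 was not called (edgeR adjusted p = 0.0691). As the share of all genes without overlap is not given, the lack of overlap is a description of these embryos. The test of the difference between the 2 stage effects gave -2.16 ± 1.38 on the log2 scale (adjusted p = 0.741), so an unequal rise in intact and separated embryos was not shown. The call in intact embryos was lost with no filter on counts (adjusted p = 0.0978). In separated embryos Nanog was called without a batch term (adjusted p = 0.0306) and by DESeq2 (adjusted p = 0.000552). The pseudogenes Nanog-ps1 and Nanog-ps2 had no count.

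Sox2, the partner of OCT4 in inner cells (chromosome 3, 34650405 to 34652461, plus strand), was undetected in 38 libraries. The only counts were 30 in blastomere 4 of separated 4-cell embryo 6, or 1.11 CPM of that blastomere and 0.291 CPM of that embryo. At the depth of the batch 1 blastomeres of 4-cell embryos, where 3 counts are 0.573 to 1.25 CPM, a level like that would be at the edge of detection. Batch 2 and batch 1 embryos differed with p = 0.4 by an exact permutation test (two-sided, n = 2 and 3, smallest possible 0.1). Its host lncRNA gene Sox2ot, which overlaps it on the same strand, had at most 1.065 CPM in any embryo.

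Pou5f1 (chromosome 17, 35506018 to 35510772, plus strand) showed its widest difference between the batches, not between the stages. In intact 2-cell embryos it had 19.2 and 21.7 CPM in embryos 2 and 3 and no count in the other 3. In separated 2-cell embryos it was found in 1 blastomere each of embryos 1 and 5 (13.6 and 22.4 CPM) and in no other. In intact 4-cell embryos it had 6.12 and 3.99 CPM in embryos 1 and 5 and no count in embryos 3 and 4. Batch 1 of the separated 4-cell embryos had it in 2 of 12 blastomeres, both of embryo 2 (2.01 and 15.9 CPM). All 8 blastomeres of batch 2 had it, at 155.0, 210.0, 293.9 and 261.3 CPM in embryo 6 and at 96.2, 147.1, 122.1 and 109.3 CPM in embryo 7. The stage differences were not called in intact (log2 fold change -1.86 ± 2.33, edgeR adjusted p = 0.66) or in separated embryos (-1.41 ± 2.52, adjusted p = 0.787). The latter value was -9.82 without separated 4-cell embryo 2 and 3.73 without a batch term, and it was called under neither. Its antisense gene Gm19553 had 1 count over all batch 1 libraries and 29 in batch 2.

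Carm1 (chromosome 9, 21546894 to 21592623, plus strand) had no count in the 15 libraries of 2-cell embryos. At the 4-cell stage it had 28 counts in intact embryo 3 (10.2 CPM) and none in the other 3 intact embryos, and 1 count over the 12 blastomeres of batch 1. The exact permutation test between intact stages gave p = 0.444 (two-sided, n = 4 and 5). In batch 2 all 8 blastomeres had it: 3.53, 27.8, 14.0 and 5.94 CPM in embryo 6, and 20.9, 17.3, 11.5 and 7.59 CPM in embryo 7. The overlapping gene Yipf2, on the other strand, was found in 2 of 4 intact 4-cell libraries, in 1 of 12 of batch 1 and in 7 of 8 of batch 2, at a mean of 2.27 CPM in the latter.

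Prdm14 (chromosome 1, 13113457 to 13127163, minus strand) was present at both stages and differed widely between embryos of a group. Intact 2-cell embryos held 21.8, 3.89, 15.1, 0 and 19.8 CPM, and intact 4-cell embryos 34.6, 9.86, 0.238 and 61.0 CPM. Separated embryos held 0 to 42.0 CPM at the 2-cell stage (median 10.9), 11.3, 1.87 and 27.5 CPM in batch 1 at the 4-cell stage, and 1.75 and 4.47 CPM in batch 2. The groups overlapped, and the stage differences were not called (log2 fold change 1.04 ± 1.51, edgeR adjusted p = 0.711, in intact embryos and -0.03 ± 1.65, adjusted p = 1.0, in separated ones).

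**Figure D1:**
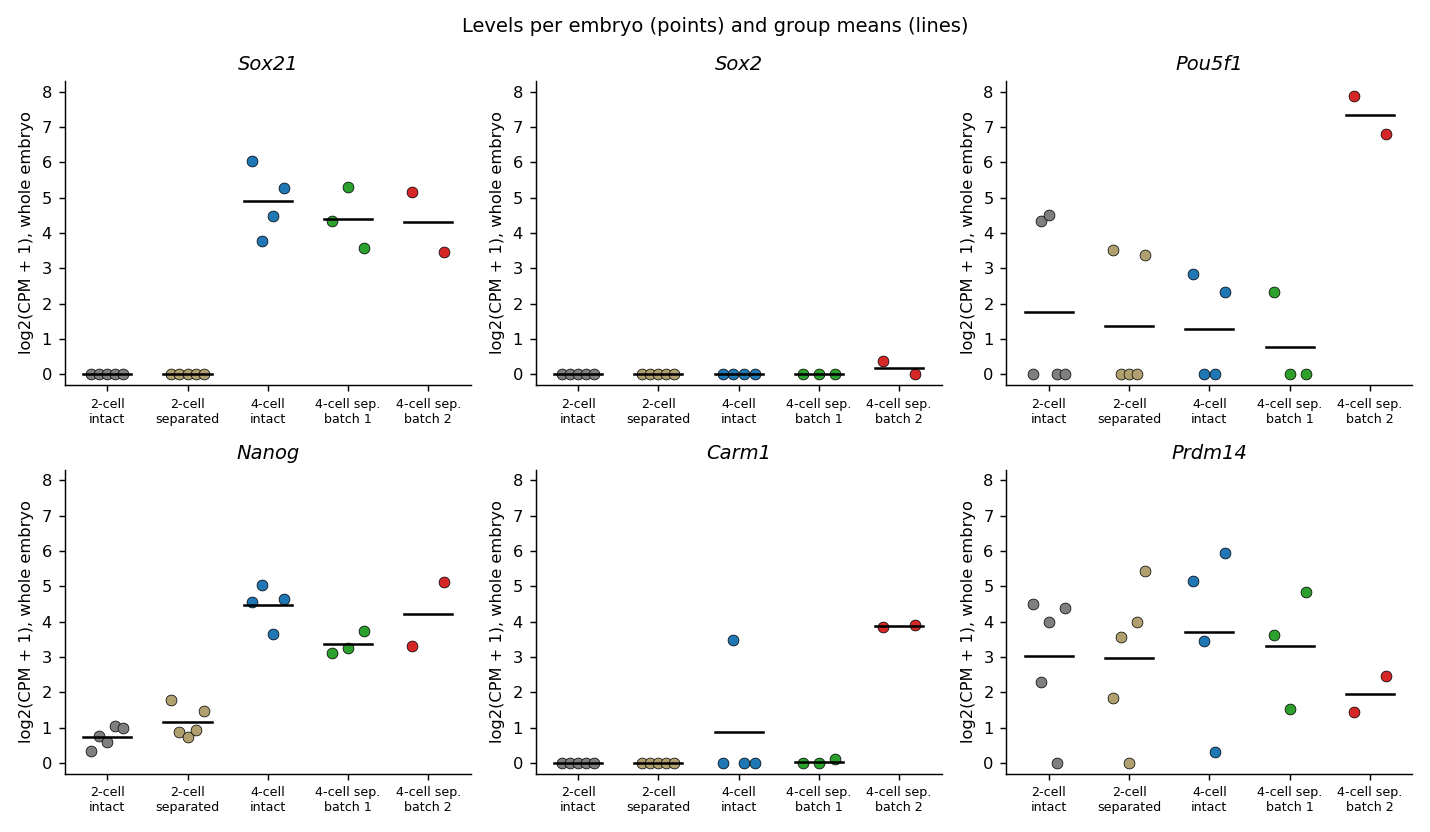
Each point is the log2(CPM + 1) of a gene in 1 whole embryo (sisters summed for separated embryos), by group, with lines at the group means of these log values. Sox21 and Nanog were higher in every 4-cell embryo than in every 2-cell embryo, and Pou5f1 and Carm1 were highest in the 2 embryos of batch 2. The share of all genes with the same order as Sox21 and Nanog is not given.

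Divided by exonic length, so that genes can be compared, the levels of intact 4-cell embryos were 10.3 ± 10.6 CPM per kb for Prdm14, 10.1 ± 3.75 for Nanog and 8.98 ± 6.0 for Sox21, which did not differ beyond their spread. Pou5f1 followed at 1.13 ± 1.36 CPM per kb, Carm1 at 0.527 ± 1.05 and Sox2 at 0. The exonic length is above that of the longest transcript for Pou5f1 (2248 against 1362 bases), Carm1 (4852 against 3585) and, slightly, Nanog (2242 against 2211). This lowers their values per kb beside those of the other genes, for which the 2 lengths are equal. In batch 2 Pou5f1 came first at 76.0 ± 38.5 CPM per kb, ahead of Nanog (9.52 ± 7.88), Sox21 (5.95 ± 4.66), Carm1 (2.82 ± 0.0785), Prdm14 (1.21 ± 0.751) and Sox2 (0.0707 ± 0.1).

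Separation of the blastomeres was accompanied by no called change in any of the 4 genes tested. Sox21 had no count in either 2-cell group, so its test at that stage could not call a change. Its test of the difference of the stage effects (SE 677.43 on the log2 scale) could not do so either. Between intact and separated embryos 0.0142% of genes were called at the 2-cell stage and 0.0% at the 4-cell stage, and the stage effects differed between intact and separated embryos for 0.0% of genes. At the 4-cell stage 844 genes had an unadjusted p under 0.05 by edgeR and 379 were called by DESeq2, and for the difference of the stage effects these were 1228 and 523 genes, with no member among them. At the 4-cell stage, separated minus intact was -0.47 ± 1.17 for Sox21, -1.16 ± 1.07 for Nanog, -0.65 ± 2.57 for Pou5f1 and -0.82 ± 1.76 for Prdm14 on the log2 scale (edgeR adjusted p = 1.0 for each). These errors leave room for differences of several fold in either direction. Because an intact embryo is a single library and a separated embryo a sum of libraries, separation and input per library cannot be told apart.

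Sisters of the same 4-cell embryo carried very unequal amounts of Sox21. In batch 1, blastomeres 1 to 4 held 68.0, 0, 0 and 0 CPM in embryo 2, 9.89, 108.0, 0 and 0 CPM in embryo 3, and 3.36, 20.4, 0 and 22.6 CPM in embryo 4. In batch 2 they held 81.1, 2.63, 0.875 and 63.1 CPM in embryo 6, and 0, 41.1, 14.9 and 14.8 CPM in embryo 7. Each of the 5 embryos thus had at least 1 sister below 1 CPM beside at least 1 above 20, and the highest sister held 48.8 to 100% of the summed sister CPM in batch 1 and 54.9 to 58.1% in batch 2. Blastomere 2 of embryo 7, the highest there, was the shallowest library of all, with 83 counts of Sox21. It therefore weighs little in the summed value of that embryo, 10.1 CPM.

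The pooled SD of log2(CPM + 1) among sisters was 2.86 for Sox21 in batch 1, the 96.0th percentile of 11408 genes once the trend of the SD with the mean level was removed. There 1797 genes of like level (within 1.5-fold) had a median SD of 2.215, so a wide spread was common at that level in batch 1. In batch 2 the SD of Sox21 was 2.57, the 99.97th percentile of 11997 genes, where 1895 genes of like level had a median SD of 0.684. Of those genes, 1.43% had as many sisters without a count as Sox21, which had 1 of 8. In batch 1 Sox21 lacked a count in 6 of 12 sisters, against a median of 2 for 1797 genes of like level, and 9.02% of them had as many. Percentiles are a description of these few embryos and carry no test.

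Nanog gave opposite pictures in the 2 batches. In batch 1 its sisters were among the most even of all genes: 5.80, 4.92, 10.8 and 9.31 CPM in embryo 2, 6.51, 8.60, 9.36 and 10.2 CPM in embryo 3, and 7.57, 13.7, 23.5 and 5.30 CPM in embryo 4. The SD was 0.588, the 1.25th percentile, and no sister lacked a count, where genes of like level had a median of 5 without one. In batch 2 the sisters held 0.0446, 9.25, 17.9 and 7.35 CPM in embryo 6 and 24.5, 0.991, 55.9 and 22.2 CPM in embryo 7, an SD of 1.96 at the 99.4th percentile. The lowest value in each of these embryos rested on 1 and 2 counts. Among separated 2-cell sisters, Nanog was even as well (SD 0.35, the 3.07th percentile, 10 of 10 with a count).

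Prdm14 was patchy at both stages. In batch 1 a single sister of embryo 2 (51.5 CPM), a single sister of embryo 3 (8.22 CPM) and 2 sisters of embryo 4 (116.9 and 22.1 CPM) held it, and the other 8 of 12 had no count, as many as 2.63% of genes of like level. Its SD was at the 96.05th percentile there, at the 76.5th percentile in batch 2 and at the 95.16th percentile among 2-cell sisters, where 6 of 10 had a count. In that order the SDs were 2.739, 1.37 and 2.801, against medians of 2.231, 1.215 and 2.073 for genes of like level. Pou5f1 and Carm1 lay near the middle of all genes in batch 2, with SDs of 0.339 (48.7th percentile) and 0.939 (55.06th percentile), so the 4-cell sisters that all carried them did so about as evenly as other genes of their level.

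**Figure D2:**
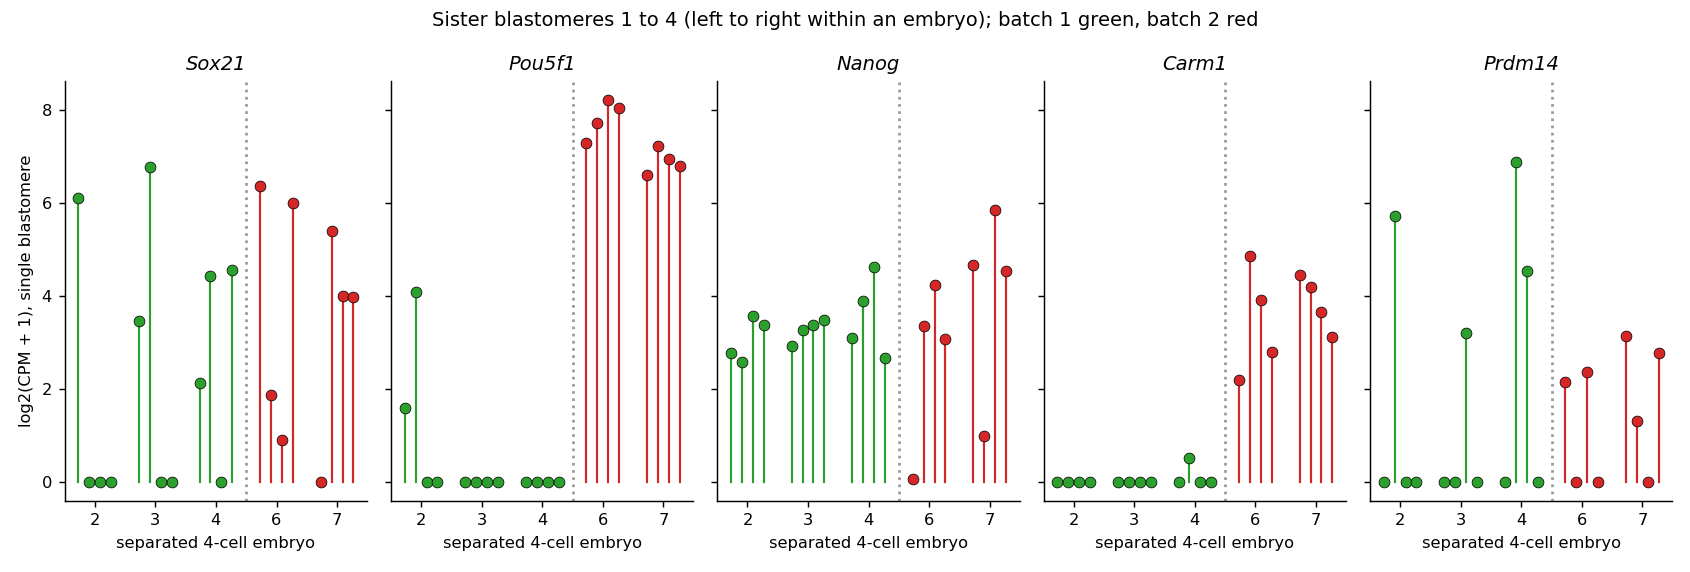
Each stem is 1 blastomere of a separated 4-cell embryo, with log2(CPM + 1) on the vertical axis and blastomeres 1 to 4 from left to right within each embryo. Sox21 was absent from 6 of the 12 sisters of batch 1 and from 1 of the 8 of batch 2, while Nanog had counts in all 20.

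**Figure D3:**
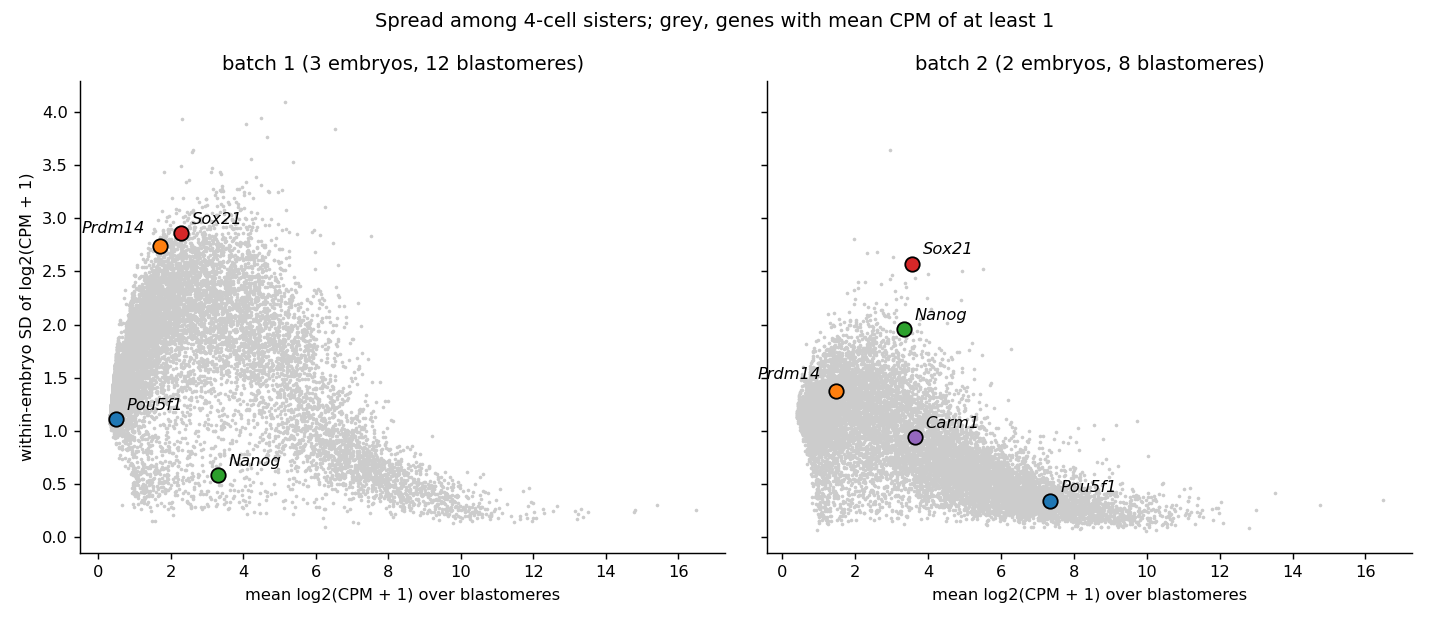
The pooled SD of log2(CPM + 1) among sisters is plotted against the mean of log2(CPM + 1) for genes with a mean CPM of at least 1 (grey points) and for the members. Sox21 lay near the top of its level in both batches, and Nanog near the bottom in batch 1 and near the top in batch 2.

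Within embryos of batch 2, the sister with the most Sox21 was the sister with the least Nanog in both embryos, and this was also so in embryo 4 of batch 1 but not in embryos 2 and 3. In embryo 6 that sister was blastomere 1, with 1 count of Nanog. In embryo 7 it was blastomere 2, the shallowest library of all, with 2 counts of Nanog. Both Nanog values were under the limit of 3 counts of their library. Over sisters, deviations from the embryo mean of log2(CPM + 1) correlated at -0.614 between Sox21 and Nanog in batch 2 (n = 8 blastomeres) and at -0.444 in batch 1 (n = 12). Between Sox21 and Carm1 the correlation was -0.734 in batch 2, the batch in which all sisters had Carm1, and between Sox21 and Pou5f1 it was -0.043. Sisters share an embryo, their deviations sum to 0 within it, and the pattern of high against low sisters was picked out after the values were seen, so these are descriptions of 5 embryos.

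Whether embryos differed by more than their own sisters do was tested with each blastomere as a library. The members that entered were Pou5f1, Nanog and Prdm14 at the 2-cell stage, Sox21, Nanog and Prdm14 in batch 1, and all but Sox2 in batch 2. No member that entered was called in any set. Among 2-cell embryos 0.0333% of genes were called (edgeR, 4 of 11996, with 821 at an unadjusted p under 0.05). Among 4-cell embryos 0.152% were called in batch 1 (11, with 692) and 0.794% in batch 2 (92, with 1447). Leaving out embryo 3, 4 or 5 left no call among the 2-cell embryos, and leaving out embryo 2, 3 or 4 left 2, 3 and 0 calls in batch 1. The nearest was Pou5f1 in batch 2, higher in embryo 6 than in embryo 7 (adjusted p = 0.0815).

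Between batch 2 and batch 1 of the separated 4-cell embryos 2.03% of genes were called, 38 higher and 248 lower in batch 2, and the 286 calls became 64 without separated 4-cell embryo 6 and 112 without embryo 7. None of the 4 members tested was among them, none had an unadjusted p under 0.05, and DESeq2 called none. With DESeq2 size factors the split was 73 higher and 207 lower, and the median log2 difference of all genes moved from 0.13 to 0.38. Pou5f1 stood at 170.8 ± 86.4 CPM in batch 2 (n = 2) and 1.35 ± 2.34 CPM in batch 1 (n = 3), a ratio of 126.6 (log2 6.44 ± 3.44, edgeR adjusted p = 0.452). With no filter on counts it was called (log2 6.69 ± 1.82, adjusted p = 0.0254). Carm1 stood at a mean of 13.7 ± 0.381 CPM in the 2 embryos of batch 2 against 0.0256 CPM in the 3 of batch 1, with p = 0.1 by an exact permutation test, the smallest that 10 splits allow. Pooled over all libraries of each batch, its 2599 counts against 1 count gave a ratio of counts per total of 607.3, with a counting interval of 108.9 to 24000. That interval covers counting error alone, and neither the variation between embryos nor that from amplification by PCR. Sox21 (-0.43 ± 1.4), Nanog (0.79 ± 1.22) and Prdm14 (-2.51 ± 2.28) were not called (adjusted p = 0.963, 0.893 and 0.747).

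Pou5f1 was set beside other genes of its level. Of 947 genes within 1.5-fold of its batch 2 level, the median was found in all 12 batch 1 blastomeres at 95.1 CPM, and 0.0% were found in as few as 2 or had as low a mean. Among the 3197 genes with a batch 2 mean of at least 50 CPM, Pou5f1 and Wdr24 alone had a count in no more than 2 batch 1 blastomeres, a pair named after its values were seen. The limit of 2 is the number for Pou5f1 itself, so its own place in the pair was fixed in advance. Farsa (85.3 CPM), Ap1m2 (74.4 CPM), Ctsd (59.9 CPM) and Dus3l (57.8 CPM) had a count in 3 batch 1 blastomeres. For Carm1, 7.24% of 1782 genes of like level were found in as few batch 1 blastomeres. Thinning every library to a common depth left Pou5f1 in 2 of 12 and 8 of 8 blastomeres and Carm1 in 1 of 12 and 8 of 8. The longest transcripts of Pou5f1 (57.6% G and C), Carm1 (57.4%) and Wdr24 (56.2%) were above the upper quartile of the genes tested (53.2%), as was Sox21 (58.3%). The median was 48.9% for genes called higher in batch 2, 45.3% for genes called lower and 48.4% for all genes tested. Of genes called higher, 2.63% were at or above Pou5f1, against 7.73% of all genes tested. The part of base composition, of the mitochondrial share and of the labelled batch in these differences was not tested.

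**Figure D4:**
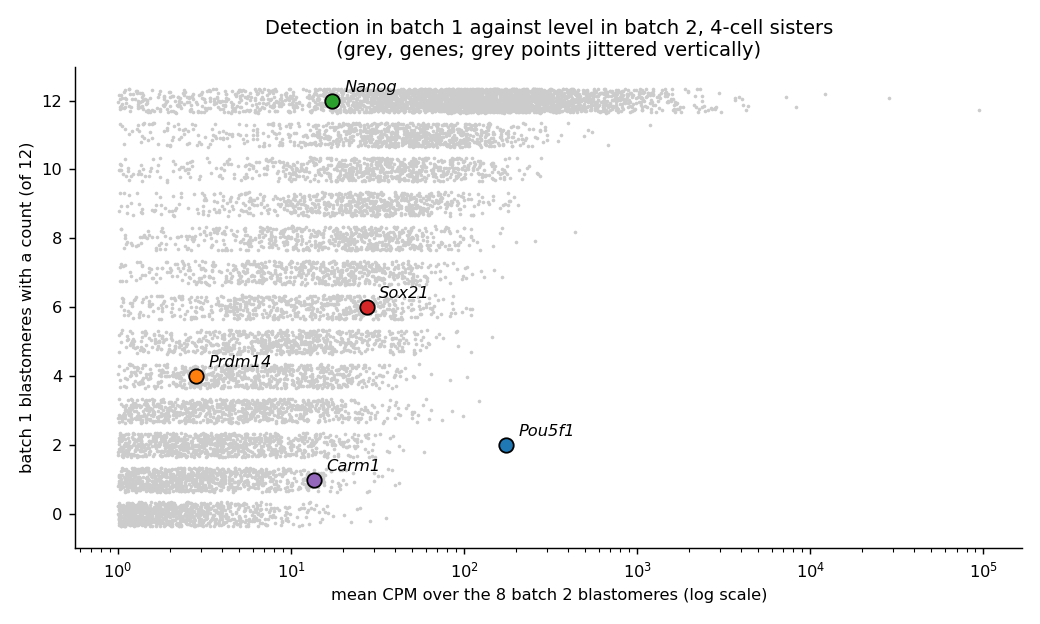
For each gene the mean CPM over the 8 blastomeres of batch 2 (log scale) is plotted against the number of batch 1 blastomeres, of 12, with a count. Pou5f1, at 174.4 CPM, had a count in 2 blastomeres, fewer than any of the 947 genes within 1.5-fold of its batch 2 level. Wdr24, at 58.7 CPM, also had a count in 2.

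The genes around the members were followed in 8 lists of 7 to 21 tested genes each. Of 19 SOX genes, 15 had a count and 8 were tested, and by edgeR Sox21 alone rose in either stage comparison, 1 of 8 where 10.4% and 11.1% of all genes changed in intact and separated embryos (median log2 fold change 3.87 in intact and 1.70 in separated embryos, against 0.0 and -0.15 over all genes). Sox15, a SOX factor able to partner with OCT4, stood at 3.16 ± 6.10 CPM in intact 2-cell and 139.2 ± 126.2 CPM in intact 4-cell embryos without being called (log2 5.20 ± 1.83, edgeR adjusted p = 0.0739). In separated embryos it went from 6.97 ± 15.1 to 173.7 ± 54.5 CPM (log2 4.57 ± 1.82, adjusted p = 0.109), and it had a count in all 12 sisters of batch 1. The call for Sox15 changed with the setting, and it was called under 6 of 28 others in intact and 3 of 28 in separated embryos. Of 7 POU genes tested, none was called by edgeR in either stage comparison, none had an unadjusted p under 0.05, and DESeq2 called 1 in separated embryos. Over all genes, DESeq2 called 23.1% in intact and 24.4% in separated embryos.

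Among 13 arginine methyltransferases and partners tested, none was called between stages by edgeR, with 1 gene in intact and 2 in separated embryos at an unadjusted p under 0.05 and 1 called by DESeq2 in each. Of all genes, edgeR called 10.4% in intact and 11.1% in separated embryos, and DESeq2 called 23.1% and 24.4%. The genes at an unadjusted p under 0.05 were 3955 and 3946 of 14119. Prmt1, the major asymmetric methyltransferase, stood at 30.9 ± 22.9 and 70.3 ± 39.4 CPM in intact 2-cell and 4-cell embryos (log2 1.17 ± 0.97, edgeR adjusted p = 0.473), and Prmt5, a symmetric one, at 17.3 ± 14.2 and 68.1 ± 37.9 CPM (log2 1.95 ± 1.22, adjusted p = 0.316). Both were measured in batch 1, where Carm1 was almost absent. Their levels too were higher in batch 2 of the separated 4-cell embryos than in batch 1. Prmt1 stood at 340.6 ± 13.3 CPM against 33.5 ± 15.9 CPM, and Prmt5 at 208.3 ± 35.7 CPM against 71.9 ± 19.5 CPM. Neither difference was called (log2 2.98 ± 1.34 and 1.15 ± 1.62, edgeR adjusted p = 0.345 and 0.876). Btg1, a cofactor of Prmt1, was the member of this list called between batches, lower in batch 2 (log2 -3.02 ± 0.69, adjusted p = 0.021, up to 0.372 over the 25 other settings and lost under 8).

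Paraspeckles, nuclear bodies that have been linked to CARM1, are built on the long noncoding RNA Neat1. By edgeR Neat1 was the 1 of 15 paraspeckle genes that rose, in either comparison, against 10.4% and 11.1% of all genes that changed in intact and separated embryos. DESeq2 called 3 of the 15 in intact and 4 in separated embryos, and as many had an unadjusted p under 0.05 by edgeR. Of all genes, DESeq2 called 23.1% in intact and 24.4% in separated embryos. By edgeR, 3955 and 3946 of 14119 genes had an unadjusted p under 0.05. Neat1 had no count in intact 2-cell embryos and 5.74 ± 4.81 CPM in intact 4-cell embryos (edgeR adjusted p = 0.0233). In separated embryos it had 1 count against 4.30 ± 7.17 CPM (adjusted p = 0.0331). The 3 batch 1 embryos behind that mean ran from 0.06325 to 12.58 CPM, with a median of 0.2574 CPM. Without intact 4-cell embryo 3 the call in intact embryos was lost, with an adjusted p of up to 0.106 over all settings. In separated embryos it was lost under 9 of 27 settings, leaving out each of separated 2-cell embryos 1 to 4, intact 4-cell embryos 1 and 3 or separated 4-cell embryo 4 among them (adjusted p up to 0.303). Of 15 partners of PRDM14 and PRDM genes tested none was called by edgeR or DESeq2, and 1 had an unadjusted p under 0.05, in separated embryos. Cbfa2t2, the corepressor partner, held 13.5 ± 9.64 and 19.4 ± 9.75 CPM in intact 2-cell and 4-cell embryos (log2 0.49 ± 0.95, adjusted p = 0.793).

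Of 21 pluripotency factors tested, 3 rose in intact embryos, where 10.4% of all genes changed, and 5 rose and 1 fell in separated embryos, where 11.1% did. DESeq2 called 7 and 9 of them, where it called 23.1% and 24.4% of all genes. Nr5a2, a nuclear receptor that acts on Pou5f1, rose from 43.2 ± 12.2 to 259.9 ± 80.5 CPM in intact embryos (log2 2.54 ± 0.37, edgeR adjusted p = 0.00022) and from 76.8 ± 31.4 to 187.5 ± 72.1 CPM in separated ones (log2 1.22 ± 0.38, adjusted p = 0.043, lost under 15 of 28 settings). Dppa2, a chromatin factor of early embryos, rose from 159.3 ± 100.2 to 716.6 ± 124.8 CPM (log2 2.16 ± 0.40, adjusted p = 0.00202), and by log2 1.51 ± 0.42 in separated embryos (adjusted p = 0.0276, lost under 5 of 28 settings). Nanog was the third in intact embryos. The others of separated embryos, named here because they are few, were Klf5 (log2 1.48), Dppa5a (2.13) and Tdgf1 (8.82), which rose, and Tbx3 (-9.93), which fell. Calls for Klf5, Tbx3, Dppa5a and Tdgf1 were lost under 18, 14, 7 and 1 of 28 settings. For Klf5, Tbx3, Dppa5a, Nr5a2 and Dppa2 most of these settings left out 1 embryo, of several groups, and the adjusted p reached 0.148, 0.532, 0.0971, 0.227 and 0.129. Dppa3, a maternal factor, was called between batches, at 27780 CPM in batch 1 and 7203 CPM in batch 2 (adjusted p = 0.000168). Tfap2c, a factor shared by inner and outer cells, held 16.3 ± 15.2 and 30.4 ± 15.4 CPM in intact embryos (adjusted p = 0.669).

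Of 8 targets of OCT4 and SOX2 and inner cell signals tested, 1 rose in intact embryos and 1 rose and 1 fell in separated embryos, beside 10.4% and 11.1% of all genes. DESeq2 called 2 in each, where it called 23.1% and 24.4% of all genes. With so few genes, a count of 1 is near the share of all genes. Fbxo15, a known OCT4 and SOX2 target, rose from 536.7 ± 188.0 to 2243 ± 717.6 CPM in intact embryos (log2 2.02 ± 0.25, edgeR adjusted p = 6.78e-05) and from 461.3 ± 126.3 to 1545 ± 463.8 CPM in separated ones (log2 1.69 ± 0.27, adjusted p = 0.00074). Both calls held under all 28 settings. Spry4, an inhibitor of growth factor signalling, fell in separated embryos from 72.5 ± 20.9 to 0.669 ± 1.04 CPM (log2 -6.85 ± 1.41, adjusted p = 0.00474). Fgf4, the growth factor made by inner cells, stood at 40.9 ± 31.7 and 38.2 ± 21.1 CPM in intact embryos (log2 -0.13 ± 1.16, adjusted p = 0.961).

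Of 9 trophectoderm factors tested, 1 rose in intact embryos, near the 10.4% of all genes that changed, and 1 rose and 1 fell in separated embryos, beside 11.1%. DESeq2 called 3 and 2 of them, where it called 23.1% and 24.4% of all genes. Cdx2 had no count in any of the 39 libraries. Hand1, a factor of trophoblast giant cells, rose from 0.124 ± 0.124 to 65.7 ± 60.0 CPM in intact embryos (log2 8.91 ± 1.94, edgeR adjusted p = 0.00617). Tead4, the DNA-binding partner of YAP in outer cells, rose in separated embryos from 0.121 ± 0.233 to 37.6 ± 10.6 CPM (log2 8.09 ± 1.73, adjusted p = 0.0064), and Id2 fell from 163.8 ± 142.6 to 14.3 ± 19.6 CPM (log2 -3.64 ± 1.15, adjusted p = 0.0474, up to 0.155 over 28 settings and lost under 17, most of which left out 1 embryo). The edgeR test of the difference between the stage effects of intact and separated embryos called none of these genes.

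**Figure D5:**
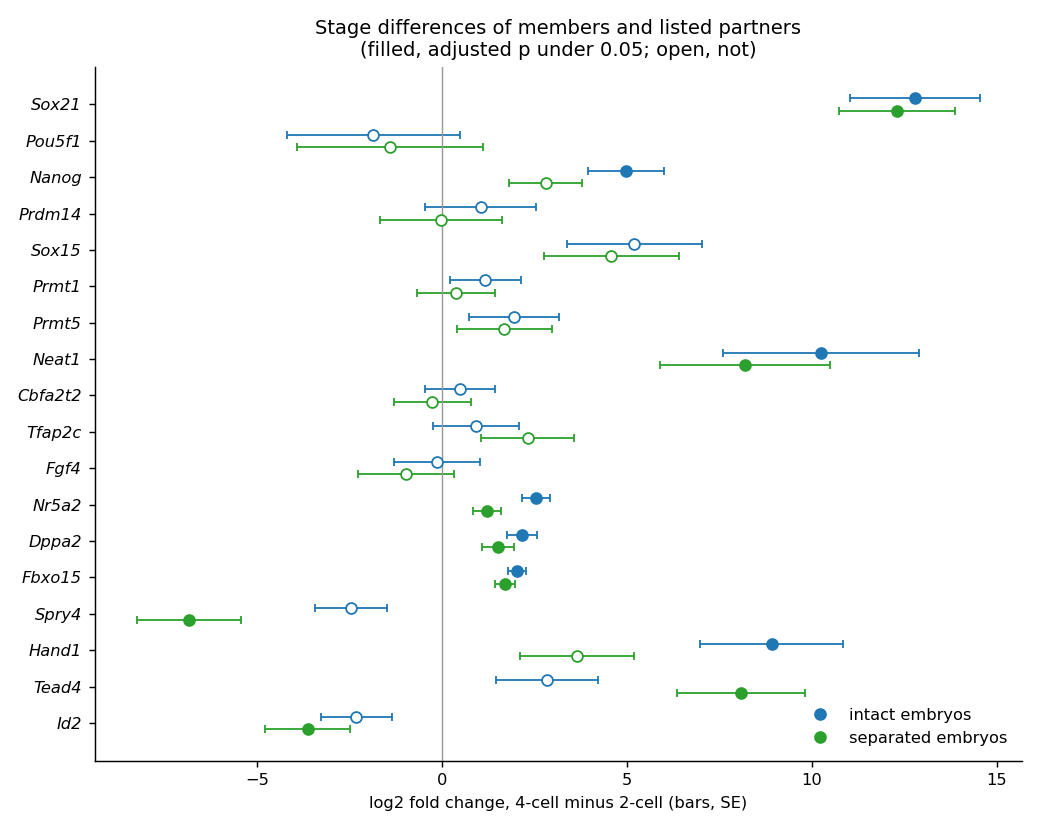
Log2 fold changes of 4-cell over 2-cell embryos with SE, for the 4 members tested and named genes of the lists, in intact (blue) and separated (green) embryos, with filled points past an adjusted p of 0.05. Sox21, Neat1, Nr5a2, Dppa2 and Fbxo15 rose in both, Nanog and Hand1 in intact embryos, and Tead4 in separated embryos. In separated embryos the calls of Neat1, Nr5a2 and Dppa2 were lost under 9 of 27, 15 of 28 and 5 of 28 other settings. In intact embryos those of Neat1 and Nanog were each lost under 2.

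Over the 19 embryos, the genes whose log2(CPM + 1) followed Sox21 most closely among 6654 genes of mean CPM at least 10 were Dmac1 (Pearson r = 0.971), Oga (0.961) and Foxa1 (0.953). For Nanog they were Foxa1 (0.937), Dnajc24 (0.927) and Nat10 (0.917). Foxa1, a pioneer factor gene, had no count at the 2-cell stage and 56.5 ± 17.6 CPM in intact 4-cell embryos, 54.0 ± 16.5 CPM in batch 1 and 86.3 ± 0.235 CPM in batch 2, so its likeness is that of genes switched on between the stages. For Pou5f1 the closest were Khdc1a (0.801), Slc39a1 (0.780) and Usf1 (0.737), and for Carm1 Lars2 (0.855), Hnrnpa3 (0.843) and Rab7 (0.834). Slc39a1, a zinc transporter gene, held 3.72 ± 2.86 CPM in batch 1 and 123.5 ± 25.2 CPM in batch 2, and Lars2, a mitochondrial leucyl-tRNA synthetase gene, 56.5 ± 14.5 and 2126 ± 462.9 CPM, so both follow the batch. For Prdm14 the closest were Cdadc1 (0.700), Atraid (0.649) and Gm12031 (0.642), and for Sox2, with counts in 1 embryo, Lars2 (0.676), Cdc5l (0.676) and Cdv3 (0.661). Among the 20 sisters of 4-cell embryos, the deviations most like those of Sox21 were of Rock2 (0.820), Cdc42bpb (0.776), both kinase genes of the actomyosin cytoskeleton, and Zfp944 (0.770), out of 6559 genes. They were picked as the highest values over sister deviations that pool both batches, and a shared function was not tested.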

How the data were processed

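Smart-seq2 libraries were made from single embryos or blastomeres (cDNA primed at the poly(A) tail, amplified by PCR and cut by a tagging transposase), per the labels' protocols, which name no molecular identifiers. The authors deposited expected counts per gene. The submitters' processing notes name Trim Galore 0.6.10, STAR 2.7.3a, RSEM 1.2.28 and the genome build GRCm38 (mm10), without the order of steps. The annotation and the strand setting of the counting are not given in the sources used here. Of the non-zero values 12.649% were not whole, and all were rounded. Intervals and limits cover counting error only.

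Counts of sisters were summed to 19 embryos. The main test was the quasi-likelihood F-test of edgeR 4.0.16 with TMM scaling and filterByExpr (14119 genes). A single fit held every embryo, with terms for group and for batch, and p was adjusted after Benjamini and Hochberg, with calls at 0.05. Dividing the size of a log2 fold change by the root of its F gave the SE. CPM are per total counts. A fold against a group without counts sets 3 counts for the whole group and is a lower bound. Embryo differences were tested with blastomeres as libraries and the embryo as factor. The spread of sisters is the pooled SD of log2(CPM + 1) within embryos, ranked after a lowess trend (span 0.3) among genes of mean CPM at least 1. Genes outside the fit had two-sided exact permutation tests of log2(CPM + 1). The edgeR test recovered 68% of genes simulated with a 256-fold change, among 14119 genes in the stage comparison.

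The 6 genes, the 8 lists of other genes and the tests were chosen with earlier results of these data known. Named besides the 6 are up to 3 genes of each list with the smallest adjusted p, fixed partners (Cdx2, Prmt1, Prmt5, Neat1, Cbfa2t2, Tfap2c, Fgf4 and Sox15) whatever their value, and the 3 genes most like each of the 6. Positions and transcripts are from GENCODE M21 on GRCm38, and upstream windows from RefSeq. Alternatives were DESeq2 size factors, DESeq2 1.42.0, other count filters, thinned totals, no batch term, batch 2 left out, a fit of just the groups compared, a block for the replicate number, each embryo left out, and other pseudocounts. R 4.3.3, Python 3.11.15, pandas 2.3.3, scipy 1.17.1, statsmodels 0.14.6 and matplotlib 3.10.9 were used.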

Additional observations from a re-analysis of the deposited data

Results flagged for a closer look

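Each of the 6 genes was searched for a value far from the others of its group or its sisters by Dixon's criterion, in groups of 4 or 5 values. Of 39 groups searched, 10 were marked, where chance marks about 1 in 20, and groups that are mostly at 0 are marked by any single value above 0. Sox21 was marked in blastomere 1 of separated 4-cell embryo 2, at 67.99 CPM with no count in the 3 sisters, and in blastomere 2 of embryo 3, at 108.0 CPM. Prdm14 was marked in blastomere 2 of embryo 2 (51.54 CPM) and in blastomere 3 of embryo 3 (8.224 CPM), each the only sister with a count. Pou5f1 was marked in blastomere 2 of embryo 2 (15.93 CPM), the same blastomere as for Prdm14. Sox2 was marked in separated 4-cell embryo 6 (0.2908 CPM) and within it in blastomere 4 (1.107 CPM), its only counts in these data. Carm1 was marked in intact 4-cell embryo 3 (10.23 CPM), with no count in the other 3, and in blastomere 2 of separated embryo 4 (0.4159 CPM, a single count). Nanog was marked in separated 4-cell embryo 7, at 33.83 CPM against 7.65 to 12.4 CPM in the other 4, which pools both batches.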

How the results depend on the processing

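The rise of Sox21 kept its direction and its call under every setting run for both stage comparisons. Among the 6 genes, 1 was called between stages in intact embryos with no filter on counts and 1 with the replicate block, in place of 2, since the Nanog log2 fold changes of 4.92 and 4.75 (adjusted p = 0.0978 and 0.0584) missed the threshold. In separated embryos 2 were called with no batch term and 2 by DESeq2, in place of 1, with Nanog at 3.17 and 2.75. Between batches 1 was called with no filter on counts, Pou5f1 (6.69), in place of 0. With a pseudocount of 5 the SD of Sox21 among sisters was 1.80 in batch 1 (1.799) and 1.72 in batch 2 (1.721), since a larger pseudocount narrows differences between low values. The SD of Nanog became 1.184 in batch 2 in place of 1.96 and 0.1384 among 2-cell sisters in place of 0.35. That of Prdm14 became 1.681 in batch 1 in place of 2.739 and 0.5552 in batch 2 in place of 1.37. With a pseudocount of 0.5 the batch 2 SDs of Nanog and Prdm14 were 2.263 and 1.816. In the stage comparisons no call of the 4 genes tested changed when 1 embryo was left out (Sox21 12.18 to 12.95 in intact and 11.66 to 12.56 in separated embryos, Nanog 4.58 to 5.13 and 2.58 to 3.12, as log2 fold changes), and no direction of a called value reversed. The values that were not called moved widely: Pou5f1 ran from -2.91 to -1.15 in intact and from -9.82 to -0.61 in separated embryos, and Prdm14 from 0.12 to 1.4 and from -1.02 to 0.82. Over all genes, calls ran from 727 to 3047 between stages in intact embryos and from 727 to 3220 in separated ones, against 1469 and 1568 in the main analysis, with the lowest counts from the replicate block and the highest from DESeq2. Without a batch term 2543 were called in separated embryos. Between intact and separated embryos the counts were 2 and 0 at the 2 stages, 104 and 11 with no filter on counts, and 493 and 379 by DESeq2. For the difference of the stage effects they were 0, 38 and 523 in the same order. Between batches they ran from 64, without separated 4-cell embryo 6, to 1276 by DESeq2, and were 1153 of 6555 with the compared groups alone, against 286. Embryo differences gave 264 calls in place of 4 at the 2-cell stage and 25 in place of 11 in batch 1 with no filter on counts, and 177 in place of 92 in batch 2 after thinning. The causes were not tested. Replicate numbers did not pair the samples: deviations of same-numbered embryos correlated at -0.055 to 0.025, and in 1 of 14 pairs the embryo correlated best with its own number. Of the named list genes, Fbxo15, Spry4, Hand1, Tead4 and Dppa3 kept each call under all settings that gave a value. Depth limits what can be said of Sox2 in batch 1, and 2 embryos cannot show how far batch 2 levels vary.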
